A study of Mus musculus with 11 samples.

Results

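The Pramel-like gene cluster of mouse chromosome 5 was defined by position, as the 49 bins of about 50 kb whose midpoint lies in chr5:93488686-95986774 (mm10), out of 52958 bins read in each library. The cluster spans 2.50 Mb and overlaps 51 annotated genes, of which 28 are protein-coding and 22 are pseudogenes. It was selected because its depth in the Dnmt TKO library lay far below that in the other libraries. The Dnmt TKO values are therefore given as a description, with no test, and the comparisons that were tested are those among Ctrl and Tet iTKO libraries. The members followed by name are Gm16427, C87414 and Gm7792, which RefSeq calls Pramel33, Pramel34 and Pramel35.

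The study asked by low-coverage whole-genome sequencing of bulk DNA whether mouse embryonic stem cells (mESC) without TET enzymes change in DNA copy number. There were 11 libraries in 7 groups. Ctrl cells have the genotype Cre/ERT2; Rosa26-LSL-H2b-Egfp, in which a human ubiquitin C promoter drives a tamoxifen-activated Cre, and Tet iTKO cells carry Tet1,2,3 fl/fl in addition. Both lines came from mice on a C57BL/6 background. For each there was 1 library before treatment. Another followed an acute course (1 µM tamoxifen for 2.5 days, then 4 days of culture). A further 3 long-term libraries of each came from monoclonal populations, labelled as treated with tamoxifen and kept for 30 days. Tamoxifen lets Cre delete the floxed Tet genes, so Tet iTKO cells before treatment, labelled as not activated, had not yet lost them. Dnmt TKO cells (Dnmt1,3a,3b TKO) carry a germline, non-inducible loss of these DNMT genes, and gave 1 library that belongs to the long-term comparison. They were sorted without the GFP gate used for tamoxifen-treated cells, and their strain is not given in the sources used here. Genotype, cell line and library therefore cannot be told apart in this group. Every culture was kept on a feeder layer in 2i medium, and live CD326+ Thy1.2- cells were sorted from it. The labels do not say whether the long-term libraries of a genotype came from separate clones, so the p-values below measure the spread between these libraries.

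PRAME family proteins are built from leucine-rich repeats, and their genes are active mainly in germ cells and early embryos. The family expanded in rodents through repeated tandem duplication, which leaves arrays of near-identical genes and pseudogenes. Pramel7, a member on another chromosome, is known to lower DNA methylation in ground-state mESC by promoting the degradation of UHRF1, a partner of DNMT1. DNMT enzymes place 5-methylcytosine and TET enzymes oxidise it. In DNA of such arrays, short reads fit several copies equally well, and depth at one copy also carries reads of the others.

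The promoters of the array show how alike its units are. RefSeq gives a promoter of 300 bases, from 250 before to 50 after the start site, for 17 genes of the cluster other than Cxcl13. The promoters of Pramel33 (chr5:93536282-93536581, minus strand) and Pramel35 (chr5:93794374-93794673, plus strand) are printed first, 5′ to 3′, because they belong to the followed members. They differ at 1 of 300 positions, A108C counted from the 5′ end of the printed sequence (Pramel33 first), and the capital marks that base.
Pramel33 (Gm16427): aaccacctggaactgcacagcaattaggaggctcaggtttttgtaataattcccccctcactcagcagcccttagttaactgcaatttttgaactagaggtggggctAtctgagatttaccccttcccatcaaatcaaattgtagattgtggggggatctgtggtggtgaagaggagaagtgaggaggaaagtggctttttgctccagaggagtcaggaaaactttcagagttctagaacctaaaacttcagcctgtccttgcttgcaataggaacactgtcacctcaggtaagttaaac
Pramel35 (Gm7792): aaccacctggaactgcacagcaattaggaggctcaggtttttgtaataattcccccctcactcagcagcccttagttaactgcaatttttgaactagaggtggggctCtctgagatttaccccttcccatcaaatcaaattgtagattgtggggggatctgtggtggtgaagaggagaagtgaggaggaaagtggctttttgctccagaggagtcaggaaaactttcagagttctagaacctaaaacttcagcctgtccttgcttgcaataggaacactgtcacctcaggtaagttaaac
Counting their own position, each was found by blastn at 37 places of the assembly (at least 80% identity over at least 270 bases), 21 inside the cluster and 16 outside it. The RefSeq start of Pramel35 lies upstream of the GENCODE gene Gm7792 (chr5:93843776-93856107), in a neighbouring bin.

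Grouped at 90% identity over at least 80% of their length, the 17 promoters fell into 5 groups. E330014E10Rik stands alone because of the length limit. Its promoter is identical to that of Pramel38, of the Pramel33 group, over the 161 bases that align. For each of another 3 groups 1 promoter is printed, to show that these are distinct. Capitals mark CG, the dinucleotide that DNMT enzymes methylate, which reads the same on both strands and was searched alone. The promoters are Pramel37 (chr5:94070496-94070795, minus strand), Gm6346 (chr5:93920035-93920334, plus strand) and Pramel45 (chr5:95108206-95108505, plus strand), all in GRCm38.
Pramel37 (BC061212): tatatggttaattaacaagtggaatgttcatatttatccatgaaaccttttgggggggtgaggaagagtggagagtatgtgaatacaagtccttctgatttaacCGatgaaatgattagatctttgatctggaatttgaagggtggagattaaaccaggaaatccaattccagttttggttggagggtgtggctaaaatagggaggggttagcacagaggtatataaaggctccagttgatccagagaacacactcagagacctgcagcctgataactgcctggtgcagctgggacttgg
Gm6346: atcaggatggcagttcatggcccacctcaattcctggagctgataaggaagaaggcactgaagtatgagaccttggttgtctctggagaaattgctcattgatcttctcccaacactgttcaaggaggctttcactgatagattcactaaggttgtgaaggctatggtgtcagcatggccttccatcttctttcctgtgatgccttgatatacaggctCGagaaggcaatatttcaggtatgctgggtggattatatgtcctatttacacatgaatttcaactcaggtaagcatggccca
Pramel45 (Gm7942): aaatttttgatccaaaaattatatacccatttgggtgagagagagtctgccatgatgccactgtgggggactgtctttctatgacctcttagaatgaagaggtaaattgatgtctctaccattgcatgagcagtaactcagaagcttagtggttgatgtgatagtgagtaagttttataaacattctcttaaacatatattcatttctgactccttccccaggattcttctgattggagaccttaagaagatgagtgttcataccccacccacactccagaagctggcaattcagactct
The promoter of Pramel37 is identical to that of Pramel50, that of Gm6346 to that of Gm6348, and that of Pramel45 to that of Gm46934. CG was present at 1 place in 12 of the 17 promoters and absent from 5, among them Pramel33, Pramel35 and Pramel45. Across the 32851 RefSeq promoters of this length, 94.6% hold at least 1 CG, the median is 7, and 14.1% hold 1 or none. All further copies of these promoters outside the cluster were on chromosome 5 itself or on its unlocalised contigs, sequence known to belong to the chromosome but without a position.

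Coding sequences ordered the 27 Pramel-like genes into 4 subfamilies. The 348 pairs that aligned over at least 80% of the shorter sequence had an identity of 76.4% to 100%, with a median of 79.9%. Each gene had a closest relative in the cluster at 96.4% to 100% identity (median 99.8%), and linking genes at 90% or at 95% gave the same subfamilies. The Gm16427 subfamily holds 9 genes, with Gm7792, Gm3106, Gm3139, Gm3183, Gm16513, D5Ertd577e, Gm3286 and E330014E10Rik beside Gm16427. The C87414 subfamily holds 5 genes, C87414, AA792892, Gm6205, Gm6367 and Gm3259. The Gm16429 subfamily holds 7 genes, all on the minus strand, and the Gm6351 subfamily holds 6, all on the plus strand. Cxcl13, a chemokine that attracts B cells, is the only protein-coding gene of the interval that aligned to none of them over that length, and it lies in the last bin.

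The libraries held 555 to 812 megabases of mapped sequence, and a bin of median depth held 215 to 315 reads. Values below are relative depth, the depth of a bin divided by the median autosomal bin of its library, so that 1 is the level of most of the genome. Intervals cover counting error only. X chromosome depth was 0.567 to 0.603 in the 11 libraries. Y chromosome depth was 0.0526 to 0.0601 in the 4 early (pre-treatment and acute) libraries and 0.468 to 0.564 in the 7 long-term libraries. Among the latter it was 0.476 to 0.480 in Ctrl, 0.560 to 0.564 in Tet iTKO and 0.468 in Dnmt TKO. Ctrl and Tet iTKO are separate lines, so genotype and cell line cannot be told apart between them.

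In the Dnmt TKO library the cluster was covered far below the level of most of the genome, whereas it was near that level in every other library. Its relative depth was 0.936 in Ctrl before treatment, 0.957 in acute Ctrl, and 0.975, 0.956 and 0.954 in long-term Ctrl replicates 1 to 3. In Tet iTKO it was 0.938 before treatment, 0.955 after acute treatment, and 0.956, 0.951 and 0.946 in long-term replicates 1 to 3. In Dnmt TKO it was 0.458 (95% exact Poisson interval 0.446 to 0.471, from about 5116 reads). The 10 other libraries lay in a narrow band with a coefficient of variation of 1.16%, and the Dnmt TKO value was outside it. The Dnmt TKO cluster depth was 0.477 of the long-term Ctrl mean of 0.962 ± 0.012 (SD, n = 3), a log2 ratio of -1.07, and 0.482 of the long-term Tet iTKO mean of 0.951 ± 0.0052 (SD, n = 3), a log2 ratio of -1.05. The 2 Mb flanks stayed near 1. In Dnmt TKO the left flank was at 1.02, slightly below the 1.03 to 1.08 of the other libraries, and the right flank at 0.964, within their range of 0.955 to 1.01.

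**Figure D1:**
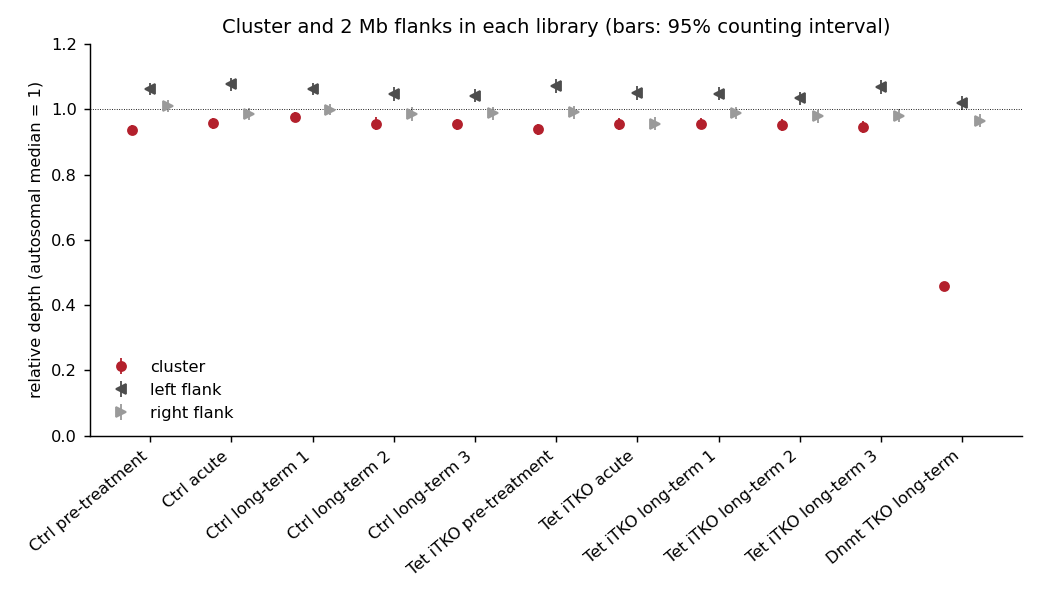
Relative depth (1 is the median autosomal bin) of the cluster (circles) and of its left and right 2 Mb flanks (triangles) in each of the 11 libraries, with 95% counting intervals as bars. The cluster sits between 0.936 and 0.975 in 10 libraries and at 0.458 in Dnmt TKO, whose flanks are at 1.02 and 0.964.

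The low depth in Dnmt TKO ran across almost the whole interval and stopped within it on the right, before the last 3 bins, which hold no Pramel-like protein-coding gene. A bin was counted as low at a log2 ratio to the long-term Ctrl mean of -0.5 or below, which held for 44 of the 49 bins, against 0.821% of all bins, and Dnmt TKO was below all 10 other libraries in 47 of 49, against 13.2% of all bins. Both counts use the values that selected the cluster. The low bins formed a run of 33 bins over 1.65 Mb (chr5:94138336-95786943), with 0.402 in Dnmt TKO against 0.961 ± 0.011 in long-term Ctrl (SD, n = 3), and a run of 12 bins over 0.600 Mb on its left (chr5:93438715-94038364), with 0.458 against 0.973 ± 0.0053 (SD, n = 3). Between them lay the bin of BC061212 and Gm6351, with 0.654 in Dnmt TKO, and an interval of the genome for which the files give no bin.

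At the left border the last bin outside the cluster, which holds the end of Gm16427, was already low, at 0.550 in Dnmt TKO against 0.965 ± 0.047 in long-term Ctrl (SD, n = 3). The first bin inside was at 0.327 against 1.01 ± 0.063. On the right the last bin inside, which holds Cxcl13, was at 0.897 in Dnmt TKO and 0.956 ± 0.056 in long-term Ctrl, and the first bin outside was at 1.05 in both. The change thus fell inside the interval on the right. It fell between the bin of Gm7982, at 0.496 in Dnmt TKO, the bin that holds most of E330014E10Rik, at 0.773, and the next bin, at 0.951.

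**Figure D2:**
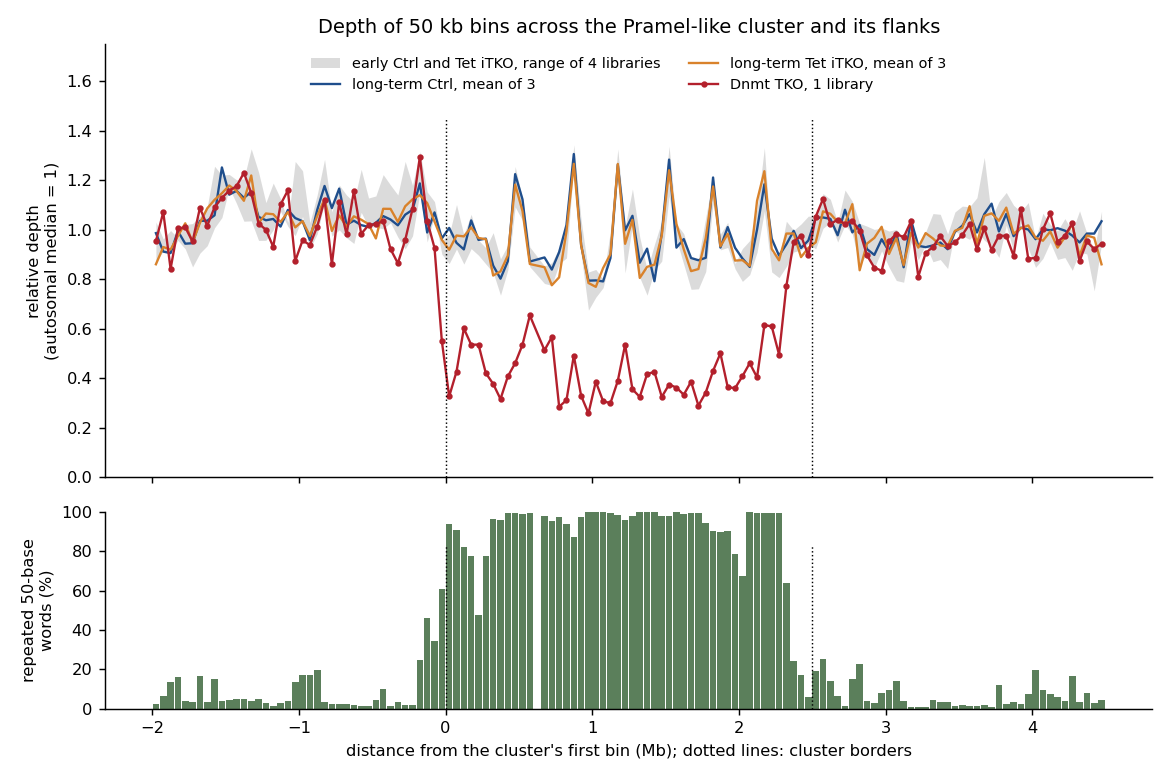
Upper panel, relative depth of each 50 kb bin against distance from the first bin of the cluster in Mb, for the long-term Ctrl and Tet iTKO means (n = 3 each), the range of the 4 early libraries (grey) and Dnmt TKO. Lower panel, the share of 50-base words of each bin that occur more than once in the assembly. Between the dotted borders Dnmt TKO lies between 0.259 and 0.976 and the other lines show regular peaks up to 1.31 on average in long-term Ctrl.

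The lowest bins by ratio each held a Pramel-like gene of the inner array. The bin of Gm6367 (chr5:94987619-95037575) had 1.27, 1.34 and 1.24 in long-term Ctrl replicates 1 to 3, 1.19, 1.31 and 1.22 in Tet iTKO, and 0.375 in Dnmt TKO, a log2 ratio of -1.75. The bin of A430089I19Rik and Gm6502 (chr5:94288209-94338166) had 0.949, 1.02 and 1.08 in long-term Ctrl and 0.312 in Dnmt TKO, a log2 ratio of -1.68. The bin of Gm6205 (chr5:94637914-94687871) had 1.37, 1.16 and 1.26 in long-term Ctrl and 0.389 in Dnmt TKO, a log2 ratio of -1.67. In each of them Dnmt TKO was below every other library. The 3 highest bins were the last 3 of the cluster, with log2 ratios of -0.05, 0.07 and -0.09, and of their protein-coding genes Cxcl13 is the only one.

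Gm16427 (chr5:93481829-93540200, minus strand) overlaps 3 bins, of which 1 lies outside the left border. Its relative depth was 0.968 and 0.974 in Ctrl before treatment and after acute treatment, 0.936, 1.02 and 1.05 in long-term Ctrl, 0.874 and 0.909 in early Tet iTKO, and 0.894, 0.900 and 0.982 in long-term Tet iTKO. Dnmt TKO was at 0.356, below the lowest of these, with a log2 ratio to long-term Ctrl of -1.49. Long-term Ctrl and Tet iTKO overlapped.

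C87414 (chr5:93634993-93671551, minus strand) overlaps 2 bins in the left part of the array. Its relative depth was 0.921 and 1.04 in early Ctrl, 1.13, 0.949 and 1.00 in long-term Ctrl, 1.03 and 0.938 in early Tet iTKO, and 0.994, 1.00 and 1.02 in long-term Tet iTKO. Dnmt TKO was at 0.542, a log2 ratio of -0.92, the smallest drop of the 3 followed members. These bins hold less repeated sequence, 78.1% on average, than those of Gm16427 (89.8%) and Gm7792 (95.8%). The log2 ratio was -1.49 at Gm16427 and -1.34 at Gm7792, and a link to repeated sequence was not tested.

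Gm7792 (chr5:93843776-93856107, plus strand) lies in a single bin of low depth in all libraries. Its relative depth was 0.757 and 0.883 in early Ctrl, 0.804, 0.754 and 0.849 in long-term Ctrl, 0.797 and 0.736 in early Tet iTKO, and 0.889, 0.855 and 0.751 in long-term Tet iTKO. Dnmt TKO was at 0.316, a log2 ratio of -1.34. The order of the 3 genes in long-term Ctrl was C87414 (1.03 ± 0.093), Gm16427 (1.00 ± 0.058) and Gm7792 (0.802 ± 0.048; SD, n = 3 each). The spreads of the first and second overlap, and Gm7792 lay below every long-term Ctrl value of the other two.

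Over the 27 Pramel-like genes, Dnmt TKO depth ranged from 0.259 at Gm7682 to 0.667 at E330014E10Rik, while the lowest value of any of them in any other library was 0.675. These gene values rest on the contrast that selected the cluster. Of the 28 protein-coding genes, 24 were at a log2 ratio of -0.5 or below, against 0.821% of all bins, and the median was -1.35. The genes above that limit were BC061212 and Gm6351 (-0.41, in the same bin), E330014E10Rik (-0.47) and Cxcl13 (-0.09). By subfamily the median log2 ratio was -1.17 for the Gm16427 subfamily (range -1.49 to -0.47), -1.41 for the C87414 subfamily (-1.78 to -0.92), -1.31 for the Gm16429 subfamily (-1.71 to -0.41) and -1.55 for the Gm6351 subfamily (-1.71 to -0.41). The ranges of the 4 subfamilies overlap widely, and 8 genes share their bin with another gene, which the bin width does not separate.

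**Figure D3:**
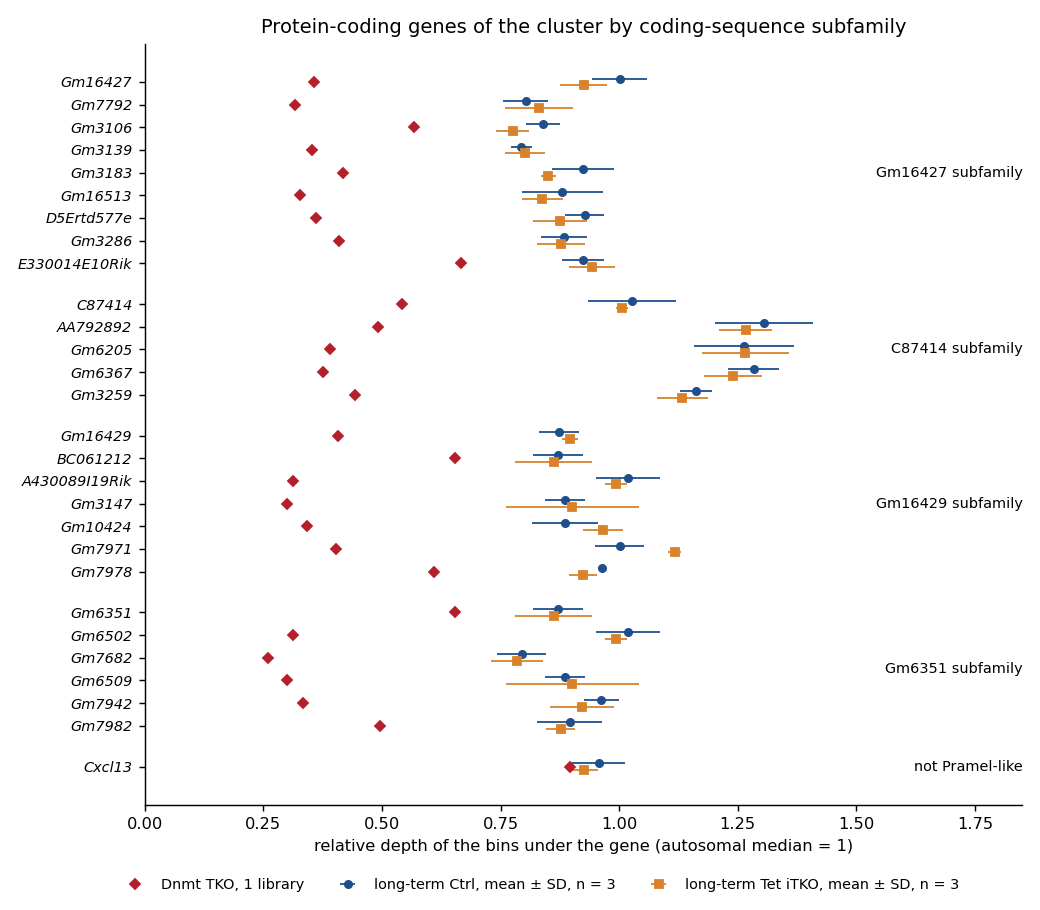
Relative depth of the bins under each protein-coding gene, in long-term Ctrl and Tet iTKO (mean ± SD, n = 3) and in Dnmt TKO, grouped by coding-sequence subfamily. All Pramel-like genes in Dnmt TKO lie at or below 0.667, and AA792892, Gm6205, Gm6367 and Gm3259 lie between 1.13 and 1.31 in both other groups.

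Mean depth in long-term Ctrl varied along the array, and no test was run between subfamilies. The genes of the C87414 subfamily had the highest means, with 1.31 ± 0.10 at AA792892, 1.26 ± 0.10 at Gm6205, 1.28 ± 0.054 at Gm6367, 1.16 ± 0.035 at Gm3259 and 1.03 ± 0.093 at C87414 in long-term Ctrl (SD, n = 3). The gene means of the other 3 subfamilies ranged from 0.794 to 1.02 in the same libraries, which reaches the level of C87414 within its spread. AA792892, Gm6205, Gm6367 and Gm3259 start 309, 340 and 317 kb apart, and the highest bin of each is 1 of the 6 peaks of the depth profile. The other 2 peaks lie in bins without a protein-coding gene, at 1.22 (chr5:93938423-93988393) and 1.18 (chr5:95637070-95687027). In Dnmt TKO the same genes were at 0.492, 0.389, 0.375 and 0.442, against a median of 0.408 over the 49 bins. This grouping was made after the values had been seen.

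A long stretch of the array is present on both sides. Repeated 50-base words that occur only in the cluster make up 3.60% of its words. Among them, the most frequent distance between consecutive copies on one strand was 1660 to 1670 kb, which held 39.1% of 35390 pairs. All repeated words with a same-strand copy at that distance were then counted, also those that occur outside the cluster. They made up 97.9% to 98.9% of each of the 4 bins from Gm16429 to BC061212 (chr5:93888452-94088335). In the 4 bins from chr5:95537155 to 95736985 they made up 98.3% to 98.6% of each. The genes in these blocks match as well: Gm16429 and Gm7971, and BC061212 and Gm7978, have identical coding sequences. In Dnmt TKO the left block had 0.407, 0.461, 0.536 and 0.654 from left to right, and the right block 0.461, 0.404, 0.615 and 0.610. In long-term Ctrl they had 0.873, 1.22, 1.12 and 0.871, and 0.850, 1.00, 1.18 and 0.964. Reads of identical copies cannot be assigned to 1 of them, so these values are not independent.

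The array is nearly all repeated sequence. Of its 50-base words, 88.4% occur more than once in the assembly, and the median bin of the cluster is at 97.7%, against 5.55% for all autosomal bins. Of all its words, 82.1% also occur on the 5 unlocalised contigs of chromosome 5, which total 1.74 Mb and have no bins in the files. Repeated words confined to the cluster and these contigs made up 65.7%, and 22.7% were repeated and occurred somewhere else as well.

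Low depth in Dnmt TKO was also more frequent among repeated bins in the rest of the genome, though most of these bins were not low. Outside the cluster, 0.0787% of the 31749 autosomal bins with up to 10% repeated words were at -0.5 or below, against 154 of the 617 bins with 80% to 100%, whose median log2 ratio was -0.02. Of the cluster bins in the latter class, 39 of 40 were. The part of repeated sequence in the low depth was not tested. Of the 6 cluster bins with the most words that occur once, the 3 highest, at 76.0% to 94.2%, are the last 3 of the cluster, with log2 ratios of -0.09 to 0.07. The bin at chr5:93688569-93738539, with 52.5% such words, had 0.536 in Dnmt TKO against 0.959 ± 0.040 in long-term Ctrl (SD, n = 3), the bin that holds most of E330014E10Rik, with 36.0%, had 0.773 against 0.941 ± 0.041, and the bin of Gm3286, with 32.8%, had 0.408 against 0.884 ± 0.049. Across the 49 bins the log2 ratio and the share of repeated words had a Pearson correlation of -0.66 and a Spearman correlation of -0.21, and within the run of 33 low bins -0.00039 and 0.14. The bins share a library and often the same reads, and these correlations are descriptions.

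**Figure D4:**
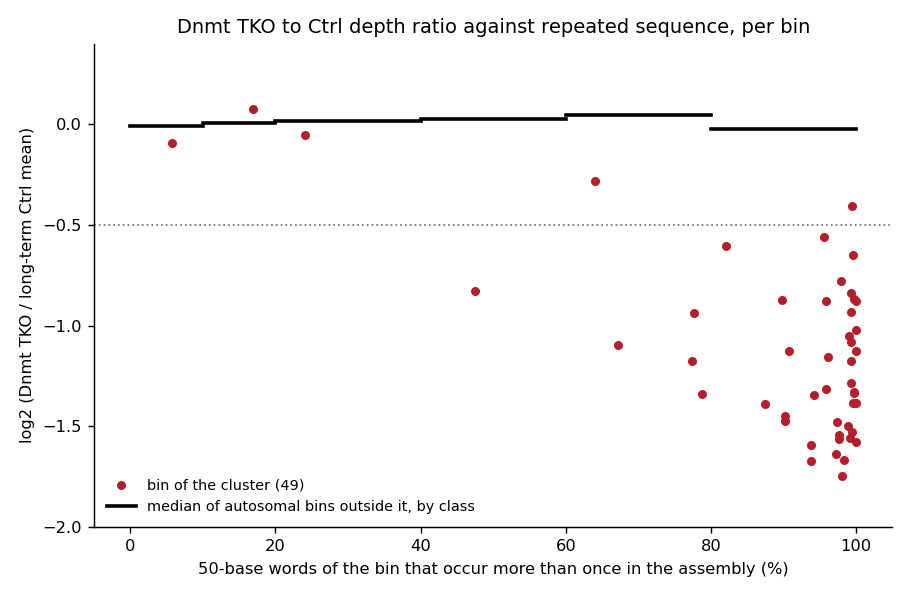
Log2 ratio of Dnmt TKO to the long-term Ctrl mean against the percent of 50-base words that occur more than once in the assembly, for the 49 bins of the cluster (points) and as the median of autosomal bins outside it in 6 classes (bars). The outside medians stay between -0.02 and 0.05, while 44 cluster bins are at or below the dotted line at -0.5.

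Over the cluster no difference was detected between Tet iTKO and Ctrl in the long-term libraries. The log2 cluster depth was lower in Tet iTKO by 0.016, with means of -0.073 ± 0.0078 and -0.056 ± 0.017 (SD, n = 3 each), and the exact two-sided permutation test gave p = 0.2, where 3 libraries against 3 cannot go below 0.1. Of the 49 bins, limma called 0 (adjusted p at least 0.522, 2 bins at an unadjusted p under 0.05), against 1.52% of all 52958 bins, and a robust fit with a variance trend called 0 as well. The log2 differences of single bins ran from -0.17 to 0.16 with a standard error of 0.071 to 0.085. Changes of a single bin within that range could not be told from the spread, and somewhat larger ones may also have been missed. The flank bin called below differed by -0.28. Of the 80 flank bins 1 was called, chr5:96286522-96336479, with 0.836 ± 0.032 in Tet iTKO and 1.02 ± 0.059 in Ctrl (SD, n = 3 each; limma adjusted p = 0.0405). It was not called without Ctrl replicate 1 or 3 or Tet iTKO replicate 1 or 3, when the smallest adjusted p in the flanks was 0.0507 to 0.194, and without Tet iTKO replicate 2 another flank bin, that of Antxr2, was called in its place (adjusted p = 0.0202). With only bins of mean relative depth 0.5 to 1.5 tested, limma called 48 of 50682 bins. Among them were 0 of the 49 cluster bins, which all lie in that range, and 0 flank bins (smallest adjusted p in the flanks = 0.276). By gene, the log2 ratio of Tet iTKO to Ctrl ranged from -0.12 to 0.16 with a median of -0.03. The highest was Gm7971, with 1.12 ± 0.014 in Tet iTKO and 1.00 ± 0.052 in Ctrl (SD, n = 3 each), whose bin did not pass (limma adjusted p = 0.559). The ratio was -0.11 for Gm16427, -0.03 for C87414 and 0.05 for Gm7792.

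Stage was compared within each genotype, as long-term libraries against the average of pre-treatment and acute libraries, in 1 fit over the 10 Ctrl and Tet iTKO libraries. In Tet iTKO this average joins a library from before Tet deletion with 1 from after tamoxifen, so it does not hold a single TET state. The cluster was at 0.936 to 0.957 in the 4 early libraries and at 0.946 to 0.975 in the 6 long-term libraries, so the ranges overlapped. In Ctrl limma called 0 of 49 bins (smallest adjusted p = 0.131, 1 bin at an unadjusted p under 0.05), against 3.62% of all bins. In Tet iTKO it called 0 of 49 (smallest adjusted p = 0.461, 2 bins at an unadjusted p under 0.05), against 3.61% of all bins. The difference between both stage contrasts was called in 0 of 49 bins (smallest adjusted p = 0.68, 3 at an unadjusted p under 0.05), against 0.906% of all bins. The shares over all bins are not a matched background for the cluster. All 49 bins have a mean relative depth of 0.5 to 1.5. With only the 50682 bins in that range tested, limma called 57 in Ctrl, 47 in Tet iTKO and 23 for the difference. Early groups hold 1 library each, so the spread in this fit comes from the 6 long-term libraries and the early ones are assumed to vary like them, and the Y chromosome depths above differed between the stages, so stage and cell line cannot be told apart.

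The call of 1 cluster bin depended on a single library. Without long-term Ctrl replicate 3, the bin of Gm3183 (chr5:94837745-94887702) passed in the Ctrl stage comparison, with a log2 difference of 0.31 ± 0.088 (SE) and a limma adjusted p = 0.0428. With all libraries it was 0.25 ± 0.083 (SE) at an adjusted p = 0.131. The 5 Ctrl libraries had 0.736 before treatment, 0.815 after acute treatment and 0.954, 0.968 and 0.848 long-term, so each long-term value was above both early ones.

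Other Pramel genes were not uniformly low in Dnmt TKO. The annotation holds 30 of them outside the cluster, in 6 loci covered by 29 bins, of which 4 were at a log2 ratio of -0.5 or below, against 0.821% of all bins. All 4 belong to the largest locus, 21 genes from Pramel1 to Pramel13 on chromosome 4 (143394441 to 144408467), which stood at 0.885 in Dnmt TKO against 0.966 ± 0.015 in long-term Ctrl (SD, n = 3) and 0.932 to 0.987 over the 10 other libraries. The locus of Pramel7 and Pramel6 on chromosome 2 was at 1.11 in Dnmt TKO, within the range of 0.879 to 1.16 of the others. Pramel32 on chromosome 4 (1.09) and Pramel with Pramel3 on the X chromosome (0.574) were within their ranges too, and the loci of Pramel17 to Pramel19 on chromosome 4 (1.14) and of Pramel51 on chromosome 12 (1.15) were above theirs. In long-term Tet iTKO against Ctrl, limma called 0 of the 29 bins, against 1.52% of all bins. With only bins of mean relative depth 0.5 to 1.5 tested, which include these 29, it called 48 of 50682.

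The windows of 500 kb whose profile over the 11 libraries was most like that of the cluster held genes of other families. The measure was the Euclidean distance between centred log2 profiles over 11 libraries, and 4794 autosomal windows outside the cluster and its flanks were ranked. The Ctrl and Tet iTKO libraries varied little over the cluster, so this ranking favours windows that are low in Dnmt TKO. Their low Dnmt TKO depth is therefore a description. The closest window, at chromosome 13 (61505662 to 62005531, distance 0.134), holds Ctsm and Cts3, which code for cathepsin proteases, and had 0.620 in Dnmt TKO against 1.17 to 1.26 in the other libraries. The next pair, at chromosome 7 (31976281 to 32976890, distances 0.160 and 0.164), holds secretoglobin genes such as Scgb2b15 and Scgb1b10, with 0.420 and 0.497. The last pair, also at chromosome 7 (21520138 to 22520518, distances 0.186 and 0.196), holds vomeronasal receptor genes such as Vmn1r138 and Vmn1r131, with 0.558 and 0.486. Repeated words made up 32.1% of the first window and 77.8% to 99.9% of the others. Of the 4794 windows, 20 had a Dnmt TKO to Ctrl log2 ratio of -0.5 or below, and 7 were as low as the cluster or lower.

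**Figure D5:**
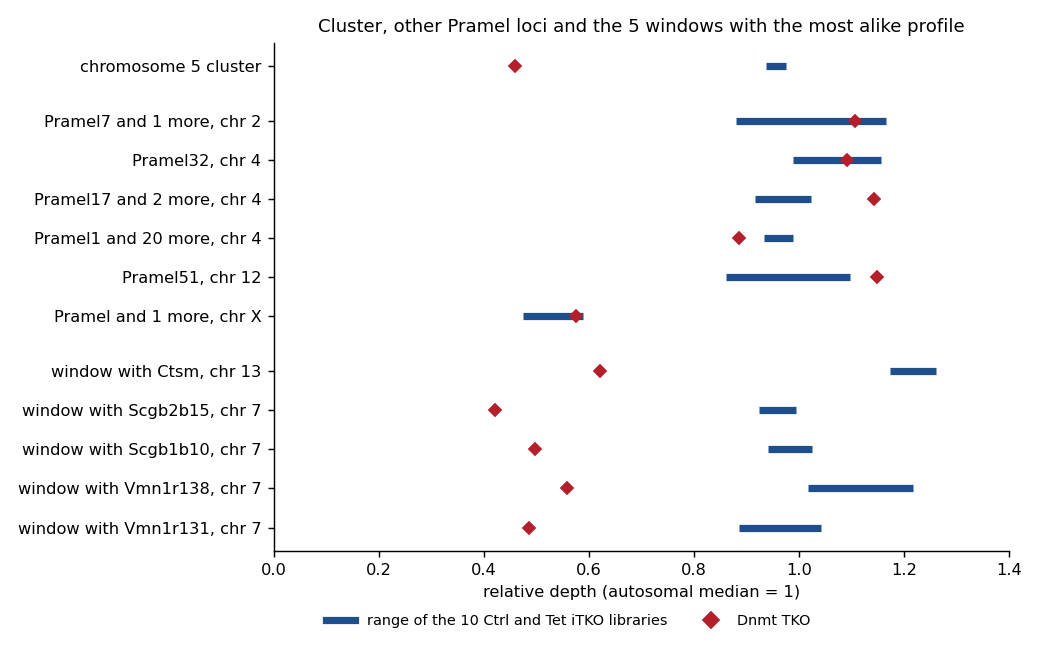
Relative depth in Dnmt TKO (diamonds) and the range of the 10 Ctrl and Tet iTKO libraries (bars) for the cluster, the 6 other loci of Pramel genes and the 5 most alike 500 kb windows, each named by its first gene. Dnmt TKO lies at 0.42 to 0.62 in the 5 windows, below the bars, which the ranking favours, and at 0.885 in the Pramel1 locus.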

How the data were processed

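Genomic DNA of 11 bulk mESC libraries was analysed, with groups taken from the sample labels. The authors trimmed the reads, mapped them to mm10 with BWA-mem under default options and removed optical duplicates with Picard. The deposited depth is a coverage signal per bin of about 50 kb for 52958 bins, and a deposited log2 column equalled the log2 of that depth to within 4.05e-05. Neither column was scaled to the library or corrected for GC content or mappability. Whether reads with several equally good positions were filtered after mapping is not given in the sources used here. Depth times bin length fell on a multiple of 50 bases in 95.4% of the 3432 bin values under 400 bases, so the number of reads was taken as the base sum over 50. They are estimates, since the methods describe longer reads.

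Depth was divided by the library's median over 47924 autosomal bins (relative depth). A region was the length-weighted mean of its bins, and a gene took the bins it overlaps, weighted by the overlap. All 52958 bins passed a minimum mean relative depth of 0.1. Single bins were tested on log2(relative depth + 0.01) with limma 3.58.1 (R 4.3.3), two-sided, with Benjamini-Hochberg adjustment over all bins and a threshold of 0.05. The cluster value was tested with an exact permutation test. The scripts were tested on simulated data. Between long-term libraries of a genotype, chi-square divided by its degrees of freedom was 1.02 to 1.15, where 1 is counting noise alone. They thus differed little beyond that noise, which cannot show whether they are separate clones. In the tests each was counted as 1 library. Further tools were blastn 2.17.0+, biopython 1.88, pandas 2.3.3, statsmodels 0.14.6, numpy 2.4.6, Python 3.11.15 and scipy 1.17.1. Genes came from GENCODE M21, and RefSeq names and promoters from GRCm38.p6, the mm10 assembly.

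Repeated words were counted over the chromosomes and the unlocalised and unplaced contigs of the assembly. The cluster, its borders and the gene lists were chosen with earlier results of these data known, and the coding-sequence subfamilies were formed after the depths had been seen. Genes and bins were named by rule. The rule took the members Gm16427, C87414 and Gm7792, the protein-coding genes of the cluster and the Pramel genes elsewhere, the bins at the borders, the 3 lowest and 3 highest bins by Dnmt TKO to Ctrl ratio, cluster bins past the limma threshold, and the 5 autosomal windows with the most alike profile. Alternatives covered GC content, the scaling of a library, the summary over bins, pseudocount, filter, variance model, a replicate block and leaving out each library.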

Additional observations from a re-analysis of the deposited data

How the results depend on the processing

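The Dnmt TKO values rest on 1 library, and short reads in an array that is 88.4% repeated words cannot be assigned to single copies. Depth limits single bins most: a bin of median depth held 215 to 315 reads, and the 49 cluster bins of Dnmt TKO held about 5116 in all. The cluster depth kept its sign in all 28 alternatives of its 3 comparisons. Some of them could not move it: a filter on mean relative depth of 0.5 to 1.5 kept all cluster bins, and the replicate block is balanced. In the Dnmt TKO comparisons the kept sign is no support, because the cluster was chosen for its low depth in that library. For Dnmt TKO against long-term Ctrl the log2 ratio was -1.17 with the median of bins, and -1.08 to -1.06 without each Ctrl library. Against long-term Tet iTKO it was -1.04 after GC correction, -1.07 with the library mean depth as scale, -1.17 with the median of bins, and -1.06 to -1.05 without each Tet iTKO library. Long-term Tet iTKO against Ctrl stayed between -0.022 and -0.0063 without each library. The deviations of same-numbered long-term libraries were uncorrelated over autosomal bins (-0.0050 to 0.0019), with -0.16 to -0.0042 over cluster bins. Deviations of single bins are mostly counting noise, so these values cannot show whether libraries of the same number share more than that. With the replicate block the difference between long-term Tet iTKO and Ctrl was -0.016 (exact sign-flip permutation p = 0.25) and limma again called 0 cluster bins. Over all bins the block moved the count of calls from 807 to 873. Cluster bins called stayed at 0 in 35 alternatives of the 3 limma comparisons, with 0 to 1 in Ctrl by stage and 0 in the other two when each library was left out. The exception is the bin of Gm3183 without long-term Ctrl replicate 3. Some of the 35 could not differ from the main fit. Every bin passed the main filter, so dropping it changed nothing. The early libraries, alone in their groups, add nothing to the spread in the long-term comparison. Over all bins, keeping those of mean relative depth 0.5 to 1.5 left 48 calls in place of 807 between long-term groups, 57 in place of 1915 for stage in Ctrl, 47 in place of 1911 for stage in Tet iTKO and 23 in place of 480 for their difference. The variance trend with robust fit gave 474 and 315 for the first and last of these, and a pseudocount of 0.1 gave 91 for the last. The cause was not tested.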
